A study of Mus musculus with 18 samples.

Results

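Zinc finger genes named *Zfp* followed by a number were taken from mouse chromosomes 2, 4, 12 and 13, which carry large tandem arrays of such genes, leaving out *Zfp352*. The annotation deposited with the study holds 73 of them among 35858 gene loci, with 24 on chromosome 2, 13 on chromosome 4, 4 on chromosome 12 and 32 on chromosome 13. H3K9me3 was read at these genes from ChIP-seq peak lists of mouse embryonic stem cells (mESCs) of the line ES-E14TG2a. The 6 libraries come from wild-type cells, cells without *Uhrf1* and cells without *Dhx9*, 2 per genotype, and the other 12 of the 18 samples were not analysed here. The study's methods describe the *Uhrf1* KO cells as clonal lines made with CRISPR-Cas9 in mESCs that already carried the reporter system, an array of *tet* operators before an eGFP gene on chromosome 2 together with a TetR-KRAB fusion protein at *Rosa26*. A difference between genotypes may therefore also be one between clones, and for *Dhx9* KO the making of the line was not given in the sources used here. The labels do not give the doxycycline state of the 6 libraries. UHRF1 binds hemimethylated DNA and brings in the maintenance DNA methyltransferase DNMT1, and DHX9 is an RNA and DNA helicase.

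KRAB zinc finger proteins bind DNA through arrays of C2H2 fingers, and through their KRAB domain they bring in TRIM28, which in turn brings in the H3K9 methyltransferase SETDB1. Their genes arose by repeated duplication and stand in clusters, and H3K9me3 has been described over the finger-coding 3′ exons of many of them. The long last exon that codes for the fingers is typical of the family, and neighbouring genes often share most of its sequence.

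The coding sequences of 72 of the 73 genes were translated, *Zfp389* having none in the annotation. Of these, 70 held at least 1 C2H2 finger, with a median of 11 fingers and at most 34, in *Zfp462*. A finger was written as a pattern of 2 cysteines and 2 histidines within set ranges of spacing. All fingers lay in the last exon in 52 genes and none did in 15, among them *Zfp458*, *Zfp618*, *Zfp362*, *Zfp106* and *Zfp346*, so that for those genes a peak over the last exon is not a peak over fingers. A KRAB-like string in the protein was found in 33 genes. Runs of 3 or more of the genes, with gaps of at most 500 kb, were taken as clusters, of which there were 6. They held 36 genes, 25 of them with the KRAB-like string, whereas 37 genes, 8 of them with the string, lay outside clusters. *Zfp335* to *Zfp334* on chromosome 2 meets the spacing rule but none of its 3 proteins has the string.

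One finger from each of 8 genes is shown, as examples of runs called in all, in some or in none of the libraries. Last exons of other genes had further patterns of calls. They are coding sequence of the mm10 reference, 5′ to 3′ on the strand of the gene, and capitals mark the codons of the 2 cysteines and 2 histidines. The first pair, *Zfp369* (chr13:65297319-65297381, plus strand) and *Zfp37* (chr4:62191614-62191676, minus strand), lay under a peak in all 6 libraries. *Zfp169* (chr13:48490054-48490116, minus strand) did so in 5, *Zfp184* (chr13:21959488-21959550, plus strand) in the 2 wild-type libraries alone and *Zfp273* (chr13:67825589-67825651, plus strand) in both *Uhrf1* KO libraries and *Dhx9* KO replicate 2. *Zfp966* (chr2:175920797-175920859, minus strand), *Zfp967* (chr2:176531245-176531307, plus strand) and *Zfp968* (chr2:175382703-175382765, plus strand) lay under a peak in 0 libraries, and their runs are identical.
Zfp369: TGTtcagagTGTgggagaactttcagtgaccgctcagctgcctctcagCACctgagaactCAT
Zfp37: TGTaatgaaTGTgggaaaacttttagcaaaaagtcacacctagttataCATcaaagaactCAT
Zfp169: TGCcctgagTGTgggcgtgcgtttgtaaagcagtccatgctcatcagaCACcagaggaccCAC
Zfp184: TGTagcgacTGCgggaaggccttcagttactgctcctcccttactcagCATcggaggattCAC
Zfp273: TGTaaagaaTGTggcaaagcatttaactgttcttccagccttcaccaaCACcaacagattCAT
Zfp966: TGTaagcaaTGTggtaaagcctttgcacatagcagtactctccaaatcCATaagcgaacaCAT
Zfp967: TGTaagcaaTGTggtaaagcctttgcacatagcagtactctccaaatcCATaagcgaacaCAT
Zfp968: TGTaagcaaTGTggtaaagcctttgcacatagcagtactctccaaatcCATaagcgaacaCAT

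The copies go well beyond these runs. *Zfp966*, *Zfp967* and *Zfp968* have the same coding sequence over 1455 bases, and *Zfp966* and *Zfp967* have the same last exon over 3286 bases. *Zfp965* and *Zfp973* are identical over their 954 coding bases. When 150-base pieces of the last exons, the read length of the study, were placed on the reference, 0% of the pieces of these 5 genes had a mapping quality of at least 5. None of these 5 genes had a peak within 5 kb in any library, and neither did any of the 559 kb from *Zfp968* to *Zfp966*. At these 5 genes the absence of peaks therefore says nothing about the mark, and unique placement was not measured between the genes of that stretch. In 61 of the 73 genes at least 90% of the pieces were placed uniquely, and under 50% in 7, the 5 above with *Zfp972* (45.5%) and *Zfp600* (31.5%). Under 50% was seen in 9.59% of the 73 genes and in 4.23% of the annotated genes that have such pieces.

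**Figure D1:**
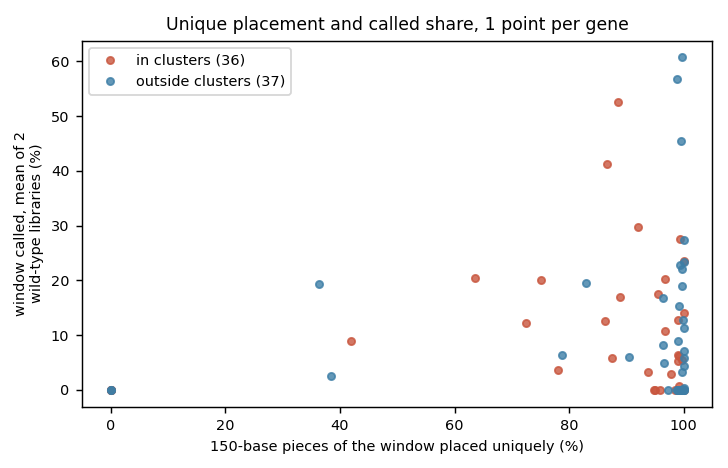
Each point is 1 of the 73 genes, red in clusters and blue outside, with the share of 150-base pieces of its transcripts and 5 kb flanks that were placed uniquely (x axis, %) against the share of that window under peaks (y axis, %, mean of the 2 wild-type libraries). The 5 genes at 0% unique all stand at 0% called, while genes above 90% unique range from 0% to over 60%.

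The lists differ in the reads they hold and in background, which touches every comparison that follows. The wild-type lists hold 116156 and 119982 peaks with 20875020 and 19543177 reads, the *Uhrf1* KO lists 70195 and 93916 peaks with 6703081 and 16966576 reads inside them, and the *Dhx9* KO lists 125453 and 120695 peaks with 19761402 and 20491615 reads. Peaks at identical positions in wild-type replicate 1 and in wild-type replicate 2 or either *Dhx9* KO library had equal background reads in 100% of cases, against 4.29% and 2.27% for *Uhrf1* KO replicates 1 and 2. Genotype and background cannot be told apart for *Uhrf1* KO, and its replicate 1 has the fewest peaks and the fewest reads in peaks. By the study's methods the alignments were brought to about the same number of reads before peaks were called, and since reads outside peaks are not listed, the depth of each library was not measured here.

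A peak within the transcripts or 5 kb of them was found at 46 and 47 of the 73 genes in wild-type replicates 1 and 2, at 36 and 42 in *Uhrf1* KO replicates 1 and 2 and at 44 and 47 in *Dhx9* KO replicates 1 and 2. In both wild-type libraries the count was 43, or 58.9%, beside 59.7% of all annotated genes. With all peaks counted, the zinc finger genes in wild-type cells thus had peaks about as often as any gene. Among stronger peaks their share was larger than that of all genes. With a log2 fold of at least 1 the counts were 36 of the 73 genes and 12347 of all 35858. With lists limited to the length of the shortest they were 37 and 13519. With all peaks, the share in *Uhrf1* KO replicate 1 was 49.3% of the 73 genes and 39.8% of all genes, and in replicate 2 it was 57.5% and 53.5%. In *Dhx9* KO replicate 1 it was 60.3% of the 73 genes and 66.1% of all genes, and in replicate 2 it was 64.4% and 60.7%. Among *Zfp* genes of the other chromosomes it went from 72.1% and 70.96% in the wild-type libraries to 46.0% and 55.5% in *Uhrf1* KO. Olfactory receptor genes, another family of tandem arrays, had peaks at 42.6% and 43.8% in wild-type cells. Of the 73 genes, 31 had a peak in all 6 libraries (42.5%, beside 34.1% of all genes) and 15 in none (20.5%, beside 22.4%).

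Start sites were rarely marked. A peak within 1 kb of the start was seen at 4 or 5 of the 73 genes in every library, from 5.48% to 6.85%, whereas among all genes the share ran from 8.36% in *Uhrf1* KO replicate 1 to 25.3% in wild-type replicate 1. Only *Zfp831*, *Zfp462* and *Zfp618* had one there in all 6 libraries, and these 3 genes lie outside the clusters.

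Over the 36 clustered genes together, wild-type H3K9me3 covered a larger share of introns than of last exons. Outside clusters the order was the reverse. In *Zfp808*, *Zfp935* and *Zfp934*, 0% of last exon bases were called, against 51.6% and 48.4% of all bases within the genes. From *Zfp712* to *Zfp273* these shares were 1.80% and 1.44%, against 4.78% and 4.44%. From *Zfp335* to *Zfp334* last exons were higher, at 69.0% and 58.5% against 34.5% and 23.7%. In the runs *Zfp120* to *Zfp345* and *Zfp970* to *Zfp931* the order differed between the replicates. In wild-type replicates 1 and 2, 17.1% and 15.9% of intron bases of the 36 clustered genes were under peaks, against 11.2% and 7.61% of last exon bases and 7.50% and 5.17% of the other exons. For the 37 genes outside clusters these shares were 19.7% and 18.5% of introns, 28.9% and 27.6% of last exons and 35.5% and 22.7% of other exons. All genes of the annotation gave 16.6% and 15.8%, 22.7% and 21.3%, and 25.2% and 24.0%. In *Uhrf1* KO replicates 1 and 2, intron shares were 17.7% and 18.8% in clusters, 9.21% and 17.5% outside and 5.34% and 11.9% over all genes. The clustered introns were therefore not lower in either *Uhrf1* KO library than in either wild-type library, while introns over all genes were lower in both. Introns alone were not counted without *Zfp808*, *Zfp935* and *Zfp934*, but whole windows with their flanks were. Windows of all clustered genes were called over 13.4% and 12.6% in wild-type cells and 13.9% and 14.9% in *Uhrf1* KO. Without *Zfp808*, *Zfp935* and *Zfp934* these shares were 8.71% and 8.01%, then 7.10% and 8.71%. *Uhrf1* KO replicate 1 was then below both wild-type libraries. From *Zfp335* to *Zfp334* the windows of the 3 genes went the other way, from 23.9% and 18.9% in wild-type cells to 2.52% and 11.7% in *Uhrf1* KO. The 5 kb before the start had the lowest share, 6.88% and 7.25% for the 73 genes in wild-type cells.

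**Figure D2:**
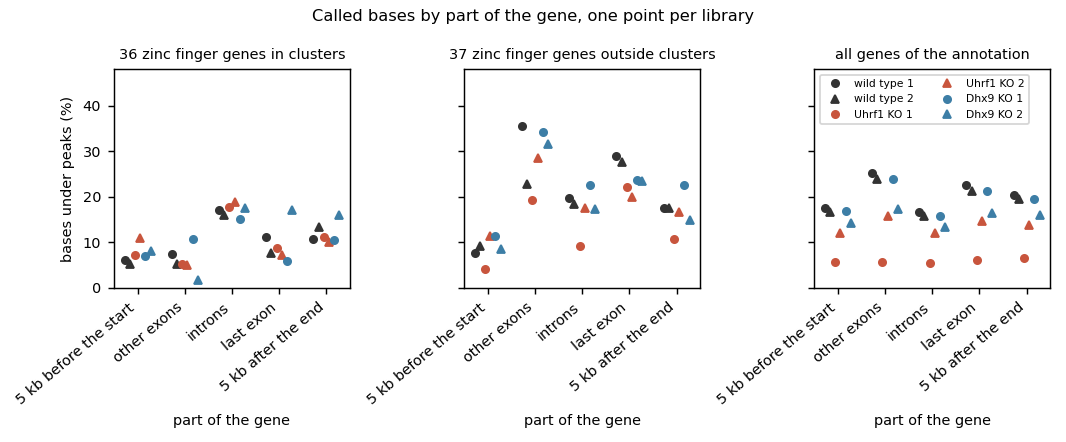
Share of bases under peaks (y axis, %) in 5 parts of the gene (x axis) for the 36 zinc finger genes in clusters, the 37 outside clusters and all 35858 genes, with 1 point per library, circles for replicate 1 and triangles for replicate 2, coloured by genotype. Over the 36 clustered genes together, introns are the highest part in wild-type cells (17.1% and 15.9%), which leans on *Zfp808*, *Zfp935* and *Zfp934*. Over all genes *Uhrf1* KO replicate 1 is the lowest library in every part.

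The clusters differ from one another. From *Zfp808* to *Zfp934* on chromosome 13 (chr13:62129890-62579320), 33.5% and 33.1% of the bases were called in wild-type replicates 1 and 2, 47.1% and 44.9% in *Uhrf1* KO and 35.9% and 47.1% in *Dhx9* KO. Both *Uhrf1* KO libraries were above both wild-type libraries there, although they had fewer peaks genome-wide. This holds within the 3 genes (51.6% and 48.4% in wild-type, 61.8% and 60.0% in *Uhrf1* KO) and between them (26.8% and 27.4%, then 41.6% and 39.4%). *Zfp808* had 52.9% and 52.2% of its window called in wild-type cells, 79.8% and 76.3% in *Uhrf1* KO and 39.96% and 72.6% in *Dhx9* KO. The 2 *Dhx9* KO values of *Zfp808* lie on either side of the wild-type values. *Zfp808* and *Zfp934* had no last exon peak in wild-type cells, and both had one in *Uhrf1* KO replicate 1 (28.2% and 17.0% of the exon called) and in *Dhx9* KO replicate 2 (100% and 58.4%).

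The largest cluster, 19 genes from *Zfp712* to *Zfp273* (chr13:67038594-67827000), was sparsely marked, with 7.56% and 6.87% of bases called in wild-type cells, 8.83% and 9.28% in *Uhrf1* KO and 8.88% and 11.7% in *Dhx9* KO. Peaks covered 4.78% and 4.44% within its genes and 9.90% and 8.92% between them in wild-type cells. *Zfp748*, with 23 fingers, *Zfp87* and *Zfp58* had no peak within 5 kb in any library, although at least 98% of their pieces were placed uniquely. *Zfp120* to *Zfp345* on chromosome 2 had 11.97% and 8.90% called in wild-type cells and 10.4% and 8.31% in *Uhrf1* KO. *Zfp970* to *Zfp931* had 10.4% and 9.58%, then 14.6% and 12.3%, and its last exons were less uniquely placed (median 84.7%). The opposite pattern was seen from *Zfp335* to *Zfp334* (chr2:164891892-165388317), a stretch that also holds other genes. There the called share was 37.7% and 34.0% in wild-type cells, 3.10% and 10.5% in *Uhrf1* KO, 32.9% and 14.3% in *Dhx9* KO. The *Uhrf1* KO values lie below both wild-type values, and so do those of *Dhx9* KO, less far.

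**Figure D3:**
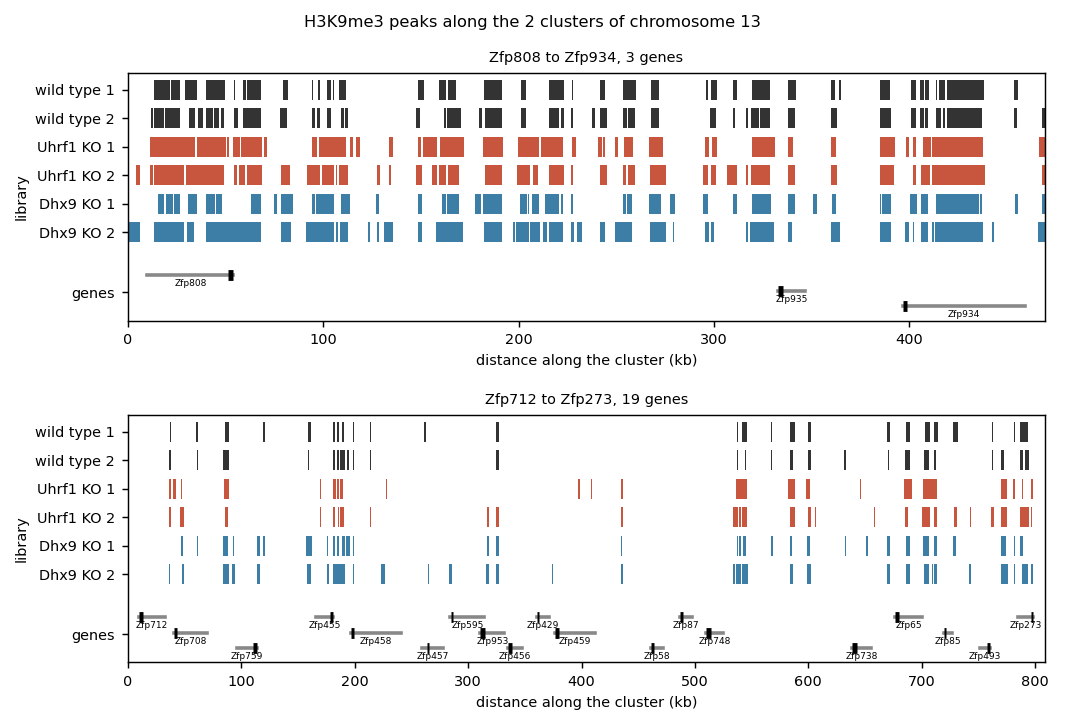
Peaks of the 6 libraries (upper rows, bars drawn to scale) along the 2 clusters of chromosome 13, as distance in kb from 10 kb before the first gene. Grey lines are genes and black blocks last exons, and the 3-gene cluster is densely covered in every library (33.1% to 47.1% of bases) while the 19-gene cluster has few (6.87% to 11.7%), mostly away from the black blocks.

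The lists were also compared in bins of 200 bases, the unit in which the peaks were called. Of the 1774 bins in the gene windows that were called in both wild-type libraries, 833 (47.0%) were called in both *Uhrf1* KO libraries and 306 (17.2%) in neither. Genome-wide these shares were 34.4% and 29.8% of 1508810 bins. In clusters 69.3% of 538 bins were called in both *Uhrf1* KO libraries, and outside 37.2% of 1236. Without *Zfp808*, *Zfp935* and *Zfp934* the share in clusters was 46.8% of 263 bins, so that more of these bins came from the 3 genes than from the other 33. *Uhrf1* KO replicate 1 alone called 71.4% of the wild-type bins in clusters and 36.1% genome-wide, and replicate 2 called 86.4% and 68.5%. With each list limited to its 70195 peaks of highest log2 fold, the shares called in both *Uhrf1* KO libraries were 72.0% in clusters, 53.4% outside and 52.3% genome-wide. In *Dhx9* KO, 68.9% of the wild-type bins of the gene windows were called in both libraries and 7.55% in neither, beside 59.5% and 12.4% genome-wide. With the limited lists that order turned, to 50.6% in the gene windows and 54.1% genome-wide. Bins next to each other share peaks and are not independent, so no test was made.

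**Figure D4:**
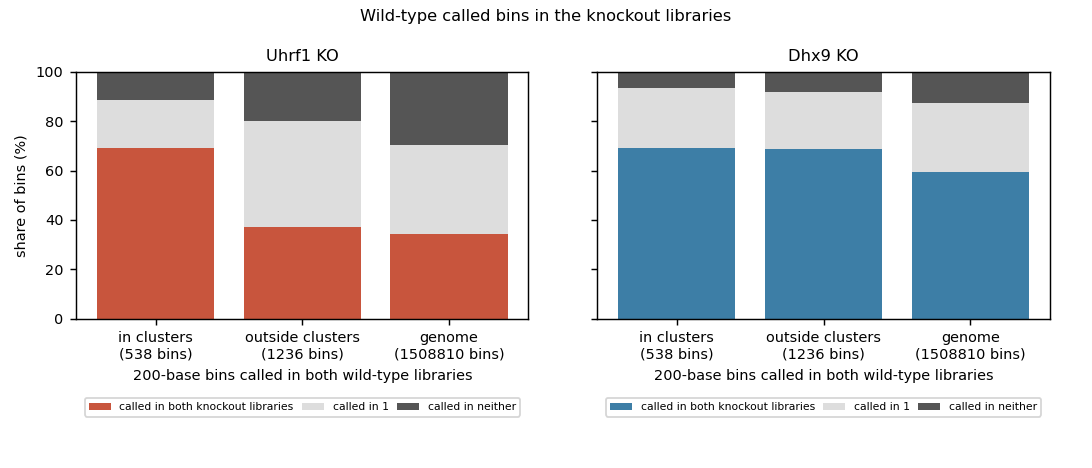
Bars split the 200-base bins that both wild-type libraries called, in the windows of genes in clusters, of genes outside clusters and in the genome, into the shares (y axis, %) called in both, 1 or neither library of each knockout. For *Uhrf1* KO the bins called in both make up 69.3%, 37.2% and 34.4%, and for *Dhx9* KO 69.1%, 68.9% and 59.5%.

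Bins that stayed and bins that went differed in sequence. In the gene windows, soft-masked repeats made up 38.7% of the bases of bins kept in both *Uhrf1* KO libraries and 19.3% of those called in neither, close to the 42.4% and 20.0% of all such bins on the 4 chromosomes. GC content was 46.0% in the kept and 47.7% in the lost bins. Unique placement was 90.9% in the kept bins and 98.9% in the lost ones, so the marked bins that stayed also contained more copied sequence. The part of copied sequence in these shares was not tested.

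At the last exon, a peak was present at 19 and 21 of the 73 genes in wild-type cells, at 16 and 13 in *Uhrf1* KO and at 16 and 24 in *Dhx9* KO. In wild-type cells these were 26.03% and 28.8% of the 73 genes, beside 28.02% and 27.1% of all genes. In *Uhrf1* KO they were 21.9% and 17.8%, beside 8.65% and 18.3%, so that replicate 1 alone stood well above all genes. In *Dhx9* KO they were 21.9% and 32.9%, beside 27.1% and 21.4%, and the 2 replicates lay on either side of all genes. Both wild-type libraries had one at 15 genes, or 20.5%, beside 22.0% of all genes. A last exon peak was present in all 6 libraries at 8 genes (10.96%, beside 5.35% of all genes), these being *Zfp169*, *Zfp369*, *Zfp937*, *Zfp663*, *Zfp831*, *Zfp37*, *Zfp618* and *Zfp362*, and 38 had none in any (52.1%, beside 59.3%). The 8 genes had no low-uniqueness exon, all being placed at 89.2% or more, and 2 of them lie in clusters. Their last exons had a median GC content of 45.8%, against 39.1% in the 38 without a peak, and 15.7 against 8.53 CpG per kb.

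**Figure D5:**
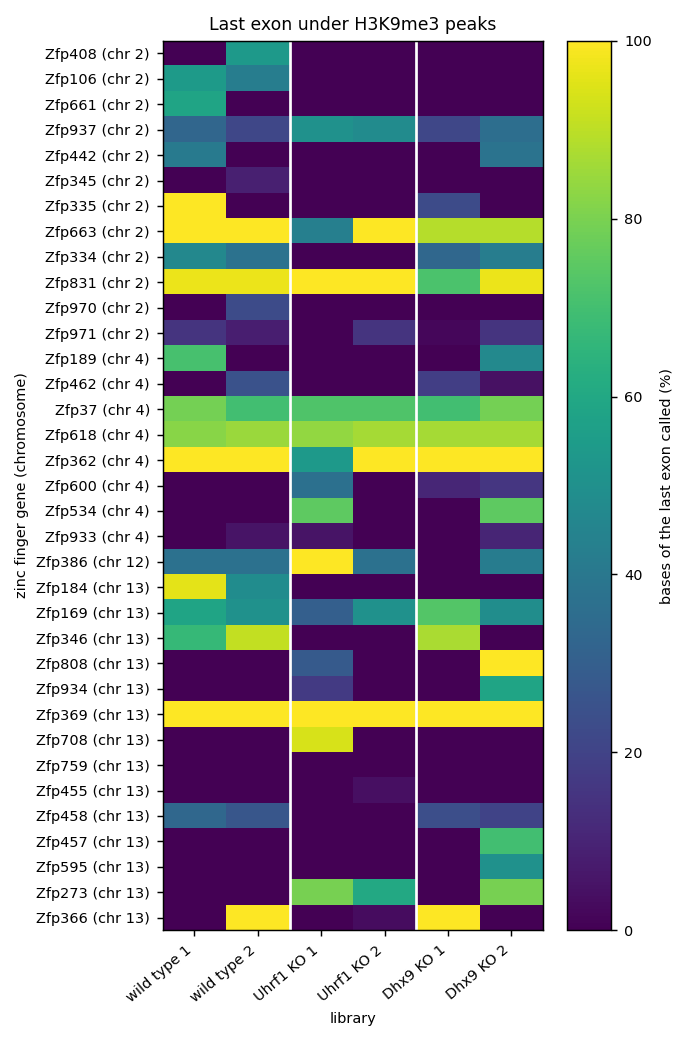
Share of the last exon under peaks (colour, %) for the 35 genes with a last exon peak in at least 1 library (rows, by chromosome and position) in the 6 libraries (columns), with white lines between genotypes. *Zfp369* is at 100% in all 6 libraries, while *Zfp184* and *Zfp106* are coloured in the 2 wild-type libraries only.

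*Zfp369* had 100% of its last exon (chr13:65296063-65297795) called in every library, with 294 and 242 reads in the overlapping peak in wild-type cells, 85 and 133 in *Uhrf1* KO and 214 and 244 in *Dhx9* KO. Reads here are those of whole peaks, not scaled to depth. *Zfp37*, a gene with 12 fingers, all in the last exon, was called over 69.8% to 78.9% of that exon, with 138 and 114, 131 and 140, and 118 and 132 reads in the same order. The read counts of *Zfp37* overlap between the 3 genotypes. *Zfp937*, which has the KRAB-like string, was called over 33.2% and 21.1% of its last exon in wild-type cells, 50.6% and 48.3% in *Uhrf1* KO and 21.1% and 36.2% in *Dhx9* KO. Both *Uhrf1* KO values of *Zfp937* exceeded the wild-type values, in a last exon with 89.2% unique pieces. *Zfp386* was the only gene of chromosome 12 with a last exon peak, at 37.4% and 37.2% in wild-type cells, 100% and 37.4% in *Uhrf1* KO and 0% and 41.8% in *Dhx9* KO.

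A last exon counts here as lost where it had a peak in the 2 wild-type libraries and in 0 of the 2 libraries of a knockout, and as gained in the reverse case. In *Uhrf1* KO 5 of the 15 genes with a wild-type peak were lost (33.3%), beside 37.0% of 7899 such genes in the annotation. They were *Zfp458*, *Zfp334*, *Zfp184*, *Zfp106* and *Zfp346*. *Zfp458* had the highest log2 fold of ChIP over background among them in wild-type cells, 1.90 and 2.498, with 60 and 68 reads, and its last exon holds none of its 20 fingers. *Zfp334*, with 14 fingers in the last exon, had 276 and 224 reads and log2 folds of 0.93 and 0.97. *Zfp184* had 125 and 45 reads over 95.9% and 48.5% of its exon, *Zfp106* 73 and 60 reads and *Zfp346* 129 and 98 reads. Wild-type log2 folds of *Zfp106* and *Zfp346* lay between 0.40 and 0.47, so those 2 peaks were near the lower end of the lists. When the exon with most fingers was used in place of the last exon, 2 genes were lost, *Zfp184* and *Zfp334*. One gene of the 48 without a wild-type peak was gained in *Uhrf1* KO (2.08%, beside 0.859% of all such genes). This was *Zfp273*, with 15 fingers, called over 79.3% and 60.3% of its last exon with 51 and 50 reads and log2 folds of 3.04 and 1.49. *Dhx9* KO replicate 2 called 79.3% of the same exon and replicate 1 none.

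In *Dhx9* KO 2 of the 15 genes were lost (13.3%, beside 11.1% of all genes with a wild-type peak), *Zfp184* and *Zfp106*, which were also lost in *Uhrf1* KO. Both comparisons use the same wild-type libraries. One gene of 48 was gained (2.08%, beside 1.65%), *Zfp600*, with 17 fingers and the KRAB-like string. It had 46 and 85 reads over 10.6% and 15.8% of the last exon in *Dhx9* KO, and 72 reads over 36.9% in *Uhrf1* KO replicate 1, in an exon with 31.5% unique pieces. With all peaks counted, the shares of genes lost or gained were near those of all genes in both knockouts. With a log2 fold of at least 1, 2 of 10 were lost in *Uhrf1* KO, a lower share than the 977 of 2602 among all genes. For a single gene 2 libraries against 2 allow no exact two-sided p below 0.333.

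*Zfp292*, *Zfp953* and *Zfp748* had the longest last exons without a peak in any library, of 8934, 4349 and 4270 bases. Those of *Zfp292* and *Zfp953* were placed at 100% uniquely and that of *Zfp748* at 98.8%. They hold 14, 8 and 23 fingers, so that a long finger exon was not by itself marked in these lists.

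Peaks of the 4 libraries of a comparison were next merged into regions. In the comparison of wild-type with *Uhrf1* KO, 171 regions touched the gene windows, of which 22 (12.9%) were lost and 8 (4.68%) gained, beside 13.7% and 3.00% of all 140413 regions. Of the 22 lost regions 5 lay at *Zfp831*, a gene outside clusters with only 2 fingers, whose window was called over 61.7% and 59.8% in wild-type cells, 16.7% and 41.4% in *Uhrf1* KO and 48.3% and 46.3% in *Dhx9* KO. Both *Uhrf1* KO values and both *Dhx9* KO values lie below the wild-type ones. Of the 8 gained regions 3 lay at *Zfp600* and 3 in the 19-gene cluster. In *Dhx9* KO 4 of 196 regions were lost (2.04%) and 10 gained (5.10%), beside 3.52% and 4.11% of all 155340. Of these gained regions 5 lay in the 19-gene cluster, at *Zfp708*, *Zfp759*, *Zfp455* and at the neighbours *Zfp595* and *Zfp953*, with 35 to 95 *Dhx9* KO reads each.

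Read counts could be compared only where a region was called over at least 80% in every library of the comparison. Regions lost, gained or much shortened in a knockout could not enter, so these tests cannot show such changes. With *Uhrf1* KO the 80% rule left 3 regions at the genes, at *Zfp934*, *Zfp972* and *Zfp37*, and all lie inside the genes outside their exons. The widest spans 27.0 kb of *Zfp934* (chr13:62531801-62558800), with 1919 and 1787 reads in wild-type cells and 1342 and 2761 in *Uhrf1* KO. The 2 *Uhrf1* KO counts lie on either side of the wild-type ones before scaling for depth, and the log2 change was 0.16 ± 0.12 (SE, n = 2 against 2, edgeR adjusted p = 0.433). At *Zfp972* there were 142 and 127 reads, then 87 and 180 (0.19 ± 0.18, adjusted p = 0.542 in edgeR). The region of *Zfp37* (chr4:62199001-62202600) had 206 and 220, then 107 and 232 (-0.10 ± 0.15, adjusted p = 0.737 in edgeR). By edgeR's quasi-likelihood test none of the 3 reached a false discovery rate of 0.05, while 5.54% of 2528 regions were lower and 3.20% higher. An unadjusted p under 0.05 in edgeR was seen at 0 of the 3, beside 647 of the 2528, and 0 of the 3 passed in DESeq2. With 3 regions this does not set the genes apart. When all called reads of a library were taken as its size, the median of all 2528 regions shifted to 0.56 and the 3 regions were called higher, at 0.74, 0.75 and 0.47.

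With *Dhx9* KO 6 regions could be compared. That of *Zfp934* had 1919 and 1787 reads in wild-type cells and 1354 and 2190 in *Dhx9* KO (-0.16 ± 0.14, edgeR adjusted p = 0.749). At the last exon of *Zfp618* (chr4:63129801-63138600) there were 518 and 559 reads, then 735 and 423 (0.11 ± 0.21, edgeR adjusted p = 0.908). The 2 *Dhx9* KO counts of *Zfp618* fall on either side of the wild-type counts. Without *Dhx9* KO replicate 1 *Zfp618* was called lower (-0.41) and without replicate 2 higher (0.50), so its direction was set by the replicate, and *Zfp934* was called lower without replicate 2 (-0.40). At *Zfp600* there were 1155 and 1108 reads, then 1148 and 1529 (0.03 ± 0.13, edgeR adjusted p = 0.969). The log2 changes at *Zfp345*, *Zfp953* and *Zfp971* were 0.34, -0.07 and -0.02, with edgeR adjusted p of 0.51, 0.939 and 0.978. None of the 6 passed in edgeR, beside 0.553% lower and 0.0425% higher of 4701 regions. An unadjusted p under 0.05 in edgeR was seen at 0 of the 6, beside 573 of the 4701, and 0 of the 6 passed in DESeq2.

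The centres of 2 regions, 200 bases each, are shown because they are the wide intronic blocks at clustered or repeated genes, called in all 6 libraries. They are mm10 sequence on the plus strand, with capitals marking CpG, of which each has 1. That of *Zfp934* (chr13:62545201-62545400) has 35 soft-masked bases and that of *Zfp600* (chr4:146171001-146171200) has 194.
Zfp934: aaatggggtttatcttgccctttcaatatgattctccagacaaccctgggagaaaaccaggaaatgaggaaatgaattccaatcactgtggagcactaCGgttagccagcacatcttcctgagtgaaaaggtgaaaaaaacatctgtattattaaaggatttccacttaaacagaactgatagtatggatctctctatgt
Zfp600: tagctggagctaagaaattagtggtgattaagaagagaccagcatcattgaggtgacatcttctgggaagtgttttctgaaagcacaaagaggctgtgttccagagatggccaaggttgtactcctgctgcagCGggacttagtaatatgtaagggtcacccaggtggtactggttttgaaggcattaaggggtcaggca

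No gene window was called over 80% in every library. Over last exons, which were fitted after seeing the data, 3 of the genes could be compared with *Uhrf1* KO and 4 with *Dhx9* KO, and none passed in edgeR or DESeq2, with 0 at an unadjusted p under 0.05. Of all last exons 0.236% were lower and 0.118% higher among 849 in *Uhrf1* KO, and 0% either way among 2054 in *Dhx9* KO. An unadjusted p under 0.05 in edgeR was seen at 108 of the 849 and at 109 of the 2054. At the genes, the largest change was that of *Zfp618* in *Uhrf1* KO, -0.36 ± 0.18 (SE, edgeR adjusted p = 0.456). With regions called over at least 50%, edgeR called 123 lower and 67 higher of all 16321 in *Uhrf1* KO, and 38 and 1 of 29660 in *Dhx9* KO. At the genes 0 of 26 and 0 of 48 regions passed, which does not set them apart where so few regions pass. The nearest was a region of *Zfp831* (chr2:174642201-174648400) that spans the exon with its 2 fingers, at -0.76 ± 0.18 in *Uhrf1* KO (edgeR adjusted p = 0.0582).

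The genes of the pathway through which KRAB proteins act were looked up in the same way. Of 22 symbols 21 are in the annotation. A peak within 5 kb was seen at 8 and 6 of them in wild-type cells, at 6 and 6 in *Uhrf1* KO and at 9 and 7 in *Dhx9* KO. In wild-type cells these are 38.1% and 28.6%, beside 64.8% and 64.8% of all genes, and in *Uhrf1* KO 28.6% and 28.6%, beside 39.8% and 53.5%. In *Dhx9* KO they are 42.9% and 33.3%, beside 66.1% and 60.7%. *Trim28*, the corepressor, *Setdb1*, the methyltransferase, and *Uhrf1* and *Dhx9* themselves had none in any library. The lists hold peaks only and cannot check the knockouts at the RNA or protein level. *Dnmt3a*, a de novo DNA methyltransferase, had 11 and 10 peaks in wild-type cells, 1 and 1 in *Uhrf1* KO and 12 and 3 in *Dhx9* KO. *Pphln1*, which codes for a subunit of the HUSH silencing complex, went the other way, with 0.76% and 0% of its window called in wild-type cells, 7.26% and 7.07% in *Uhrf1* KO and 7.07% and 4.97% in *Dhx9* KO. Both genes were singled out after their values were seen, and neither difference was tested.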

How the data were processed

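H3K9me3 ChIP-seq peak lists of 6 libraries were used. The authors aligned 150-base reads to mm10 with Bowtie2 (version 2.3.4.3 per the labels) and subsampled the alignments to about the same number of reads. They ran epic2 (version 0.0.51) on each library alone, keeping duplicates. The paper names the wild-type input as background. In the *Uhrf1* KO lists, however, only 4.29% and 2.27% of peaks at identical positions had the background reads of wild-type replicate 1. Which input served for those 2 lists is therefore not settled. For every peak the deposited lists hold raw counts of ChIP reads and of background reads. They also hold the p-value of the peak, deposited both raw and adjusted as a false discovery rate. The deposited log2 fold compares ChIP with background reads after each is divided by its library size, and the deposited score, which the peak caller derives from that fold, was not used. Reads outside peaks are not listed. Standard errors come from the edgeR fit, which estimates the spread between libraries of a group with information shared across regions, and the 2 libraries of a group are biological replicates by the study's methods.

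The genes, lists and tests were chosen with earlier results of these data known. Gene models came from the deposited annotation, which includes the inserted reporter, and 2762 bases were subtracted on chromosome 2 behind it. All 73 genes matched RefSeq names of the mm10 tables, 51 with the same start. The last exon is that of the transcript with the longest coding sequence. A peak counted where it overlapped by 1 base. Named genes were the 3 with the highest mean wild-type log2 fold at the last exon per chromosome, those lost or gained, those tested, and the 3 longest last exons without a peak. Others named were chosen after their values were seen. Clusters were runs of 3 or more of the 73 genes with gaps of at most 500 kb, without counting genes of other names. Pieces of 150 bases at steps of 50 were placed on the GRCm38 reference with minimap2 2.31-r1302 and counted as unique at a mapping quality of at least 5.

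Overlapping or adjacent peaks were merged, and reads in regions called over at least 80% in each library were tested over all regions of the genome in R 4.3.3 with edgeR 4.0.16 (TMM on reads per called base, with the called length as an offset, a quasi-likelihood test and a threshold of 0.05 on the Benjamini-Hochberg adjusted p). DESeq2 1.42.0 was an alternative. Tested on simulated data, 160 of 200 regions changed 2-fold were recovered among 2528 with 5 false calls for *Uhrf1* KO, and 165 of 200 among 4701 with 11 for *Dhx9* KO. The simulation gave every region the same dispersion and kept the called lengths. It therefore does not show how well changes that shorten or remove peaks would be recovered. Other steps used Python 3.11.15, numpy 2.4.6, pandas 2.3.3 and Biopython 1.88. Alternatives covered stricter peaks, equal list lengths, other flanks and exons, other scalings, a replicate block and leaving out each library.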

Additional observations from a re-analysis of the deposited data

How the results depend on the processing

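Of 82 recomputed values, 58 stayed within 1.5 times the reported count, and a count of 0 that stayed 0 was included in these. Most values for regions and windows are of that kind. With at least 95% called in *Uhrf1* KO, 0 regions at the genes were left to test. The 58 are therefore no measure of how stable the losses and gains were. The number of genes with a peak in both wild-type libraries stayed within 1.5 times the reported 43. At the last exon it fell from 15 to 8 when at least 50% of the exon had to be called. Among all 35858 genes it then fell from 7899 to 6287. With a log2 fold of at least 1 it fell to 10, and to 2602 among all genes. The share of the 73 genes was thus below that of all genes with the 50% rule and above it with the log2 fold rule. Losses at the last exon in *Uhrf1* KO (5) came to 2 with a false discovery rate of at most 1e-10, with a log2 fold of at least 1, with lists of equal length and with the exon with the most fingers, and to 1 when at least 50% of the exon had to be called. Among all genes the losses were 1911 at 1e-10, 977 at a log2 fold of at least 1, 937 with equal lists and 2451 with the 50% rule, against 2921. Leaving out a library gave 5 to 9, and 3007 to 5630 among all genes. Gains in *Uhrf1* KO (1) came to 0 at 1e-10, and leaving out a library gave 1 to 6. Among all genes these were 183 and 338 to 754, against 206. Losses in *Dhx9* KO (2) came to 1 at a log2 fold of at least 1 or with the exon with the most fingers. They came to 0 with at least 50% of the exon called, and to between 3 and 5 without a library. Among all genes the log2 fold rule gave 579, the 50% rule 869 and leaving out a library 1434 to 2468, against 873. Gains in *Dhx9* KO (1) came to 0 at 1e-10, at a log2 fold of at least 1, with equal lists and with at least 50% of the exon called. Among all genes these settings gave 226, 204, 278 and 361. Without a library the gains came to between 1 and 8 (694 to 1515 of all genes). Regions at the genes passing the test were 3 of 3 in *Uhrf1* KO with all called reads as library size, against 0. In *Dhx9* KO they were 0 to 2 without a library, with 1 without replicate 1 and 2 without replicate 2, where the lone library is assumed to vary like the other group. The cause was not tested for any of these.

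With a replicate block, 0 regions at the genes passed in either comparison, and 141 lower and 71 higher of all regions did in *Uhrf1* KO and 64 and 16 in *Dhx9* KO, against 140 and 81, and 26 and 2. Replicates share only a number here: deviations of same-numbered libraries correlated at 0.06 for *Uhrf1* KO and -0.07 for *Dhx9* KO. The gene windows could not be fitted, since none was called over 80%, and at 50% 1 window (*Zfp808*, *Uhrf1* KO) could be, and 0 passed. *Uhrf1* KO replicate 1 has the fewest peaks, and the part of depth in this was not tested. Over all regions of *Uhrf1* KO, DESeq2 called 82 lower and 29 higher, all called reads as library size 32 and 1525, a minimum of 95% called 24 and 4, and 1 fit of all 6 libraries 42 and 9. Over all regions of *Dhx9* KO the counts were 13 and 1 with all called reads, 12 and 3 without the length offset, and 6 and 2 in 1 fit of all libraries.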
